A study of Mus musculus with 3 samples.

Results

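The cells described here were visceral endoderm-like cells of mouse blastoids, chosen by the RNA of 4 secreted carrier proteins. A barcode, which stands for the RNA of about one droplet, was a member when Ttr, Rbp4, Apoa1 and Apoa2 together reached 1000 CPM. CPM are UMI counts (counted RNA molecules) scaled to the barcode's or class's total. The rule was applied to barcodes with at least 10000 UMIs, of which at most 20% came from mitochondrial genes. It found 1025 members among 3669 such barcodes, out of 18388 deposited barcodes. They were 443 of 1405 in the library NrESC_Type_I, 563 of 1992 in NrESC_Type_II and 19 of 272 in NrESC_Type_III. Below, 3 values in a row belong to Type I, Type II and Type III in that order.

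Blastoids are embryo-like aggregates grown from stem cells, and each type was sequenced as 1 library of single cells, so no difference between types has a replicate check. All 3 groups came from E14 mouse embryonic stem cells kept with T0901317, an agonist of the liver X receptors. About 5 cells were placed in each microwell with rhFGF4, heparin, CHIR99021, Y27632, BMP4 and A83-01, and blastoids were picked by hand on day 5 and digested for 30 min. The labels do not say how the types differ, E14 is a single cell line, and no library without T0901317 was analysed here. The libraries held 6813, 9265 and 2310 barcodes with 90126648, 106445641 and 25443474 UMIs.

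Visceral endoderm is the epithelium that comes to surround the epiblast after the primitive endoderm of the blastocyst has formed, while parietal endoderm migrates along the trophectoderm and lays down basement membrane. Before a placenta works, visceral endoderm takes up maternal and fluid-phase proteins through apical endocytic receptors and breaks them down in lysosomes. It also secretes serum-type proteins that carry lipids, retinol, thyroid hormone and iron, as the liver does later.

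The label was checked against genes that the rule did not use. Apob, the protein around which lipoprotein particles are assembled, gave at least 1 UMI in 82.2%, 89.7% and 89.5% of members after each barcode was thinned to 10000 UMIs. In the remaining barcodes, which reached neither that carrier sum nor 100 CPM of 5 endoderm factors named below, the shares were 5.46%, 8.37% and 0 of 207. That count of 0 allows a share of up to 1.45% of barcodes with an Apob UMI at this depth; such limits do not bound the cells that express a gene. Cubn, an apical endocytic receptor, was seen in 86.2%, 89.0% and 100% of members and in 5.6%, 9.24% and 4.83% of those remaining barcodes. In barcodes that reached the factor level but not the carrier sum, called carrier-low below, Apob was seen in 18.3%, 24.9% and 17.4% and Cubn in 78.9%, 81.3% and 67.4%. Afp, a serum protein of later visceral endoderm, was seen in a minority of members, 15.3%, 20.2% and 10.5%. In the remaining barcodes Afp was seen in 0.147%, 0.962% and 0 of 207. Alb, the main serum protein of the liver, was seen in 1 of 563 members in Type II, in 0 of 443 in Type I, which allows up to 0.677% of barcodes with a UMI, and in 0 of 19 in Type III, which allows up to 15.8%. Apob was thus seen in most members and in a minority of both other classes, whereas Cubn was also seen in most carrier-low barcodes.

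Promoters are shown for 2 carriers, Apoa1 and Apoa2, and for 2 genes that were high in members without being used to choose them, Apob and Afp. Each sequence is the 250 bases before the RefSeq start (GRCm38.p6), 5′ to 3′ on the gene's strand, which is + for all 4. Capitals mark matches to a forkhead motif (TGTTTAC). This, a GATA motif (AGATAA) and an HNF4 motif (CAAAGTNCA) were searched on both strands, and no 2 matches overlapped.
Apoa1, chr9:46228380-46228629: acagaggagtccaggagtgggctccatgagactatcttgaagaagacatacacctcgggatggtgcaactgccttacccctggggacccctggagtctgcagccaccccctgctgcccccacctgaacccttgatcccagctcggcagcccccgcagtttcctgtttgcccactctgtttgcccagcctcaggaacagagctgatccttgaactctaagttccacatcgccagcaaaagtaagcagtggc
Apoa2, chr1:171224804-171225053: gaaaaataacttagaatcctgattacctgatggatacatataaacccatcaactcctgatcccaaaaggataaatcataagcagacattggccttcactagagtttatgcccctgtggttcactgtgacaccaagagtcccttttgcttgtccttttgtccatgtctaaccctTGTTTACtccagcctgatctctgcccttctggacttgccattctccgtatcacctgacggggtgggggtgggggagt
Apob, chr12:7977427-7977676: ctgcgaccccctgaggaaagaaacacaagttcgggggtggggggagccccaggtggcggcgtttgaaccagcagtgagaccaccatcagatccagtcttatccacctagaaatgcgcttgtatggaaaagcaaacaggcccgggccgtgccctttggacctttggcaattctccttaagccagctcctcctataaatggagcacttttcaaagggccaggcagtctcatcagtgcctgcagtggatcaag
Afp, chr5:90490464-90490713: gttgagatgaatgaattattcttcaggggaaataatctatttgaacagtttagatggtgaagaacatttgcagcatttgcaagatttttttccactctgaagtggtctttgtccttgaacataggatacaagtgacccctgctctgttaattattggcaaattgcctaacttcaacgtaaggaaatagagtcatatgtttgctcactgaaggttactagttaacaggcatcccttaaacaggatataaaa
Apoa2 held 1 forkhead match, which 3.17% of 32851 promoters of the same length also held. Rbp4 held a forkhead match on the other strand, 241 to 235 bases before its start. No match was found in the windows of Apoa1, Apob, Afp, Apoc2, Apom, Apoe and Cubn; GATA matches occurred in 9.99% and HNF4 matches in 1.19% of all promoters. A match describes letters only, and the start of Apoc2 used here lies 1077 bases from the first GENCODE transcript.

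The carriers chose the members, so their values are a description. Ttr, which carries thyroxine and the retinol-binding protein, was at 2479.9, 2874 and 2928 CPM over all members of a library. Rbp4, the retinol carrier of blood, was at 1844, 1568 and 1692 CPM. Apoa1 was at 237, 351 and 338 CPM and Apoa2 at 585, 675 and 533 CPM; both are proteins of high-density lipoprotein. The median sum of all 4 per member lay close together in the 3 libraries, at 3341, 3600.5 and 3018 CPM. Among the remaining barcodes that median was 27.3, 41.6 and 0 CPM. Single barcodes differed: the sum ran from 1012 to 30619 CPM in Type I, from 1009.6 to 33796 CPM in Type II and from 1163 to 17014 CPM in Type III. Ttr had a UMI in 99.8%, 99.8% and 100% of members and Apoa1 in 71.3%, 69.6% and 68.4%.

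**Figure D1:**
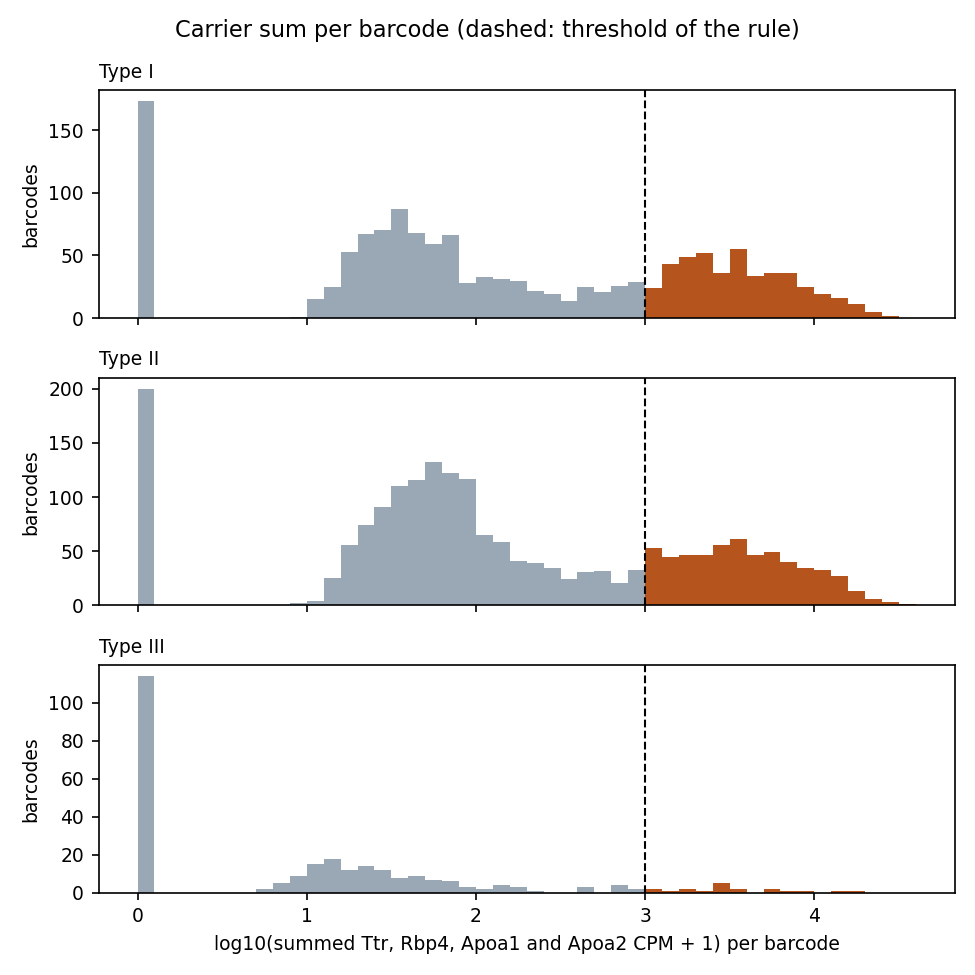
Barcodes (y axis) by the log10 of the summed CPM of Ttr, Rbp4, Apoa1 and Apoa2 plus 1 (x axis), 1 panel per library, with members in orange and the threshold dashed. Members form a broad upper group in Type I and Type II, barcodes lie on both sides of the threshold without a gap, and Type III has 19 members.

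Members made up 31.5% of kept barcodes in Type I (exact 95% binomial interval 29.1% to 34.0%), 28.3% in Type II (26.3% to 30.3%) and 6.99% in Type III (4.26% to 10.7%). The intervals of Type I and Type II overlapped, and that of Type III lay below both, but they cover counting error only. These are shares of barcodes with at least 10000 UMIs, and the sources used here do not give how deposited barcodes were called. The threshold did not fall in a gap: 28, 60 and 3 members lay between 1000 and 1300 CPM, and 43, 47 and 5 other barcodes between 700 and 1000 CPM. Just inside, Apob stood at 168, 487 and 314 CPM, and just outside at 254, 326 and 517 CPM. Cubn was at 730.1, 705 and 530.3 CPM inside and at 474, 649 and 487 CPM outside. Apob was higher inside in Type II and higher outside in the other libraries, and Cubn was higher inside in each library. Lama1, a laminin chain, was lower inside in each, at 251, 274 and 227 CPM against 301, 358 and 550.1 CPM outside. In Type III these values rest on 3 and 5 barcodes.

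Members were compared with all other kept barcodes, and with a class chosen as most like them, the carrier-low endoderm-factor barcodes. The latter held under 1000 CPM of the carriers and at least 100 CPM of Gata4, Gata6, Sox17, Sox7 and Foxa2 together, which are transcription factors of primitive endoderm; there were 284, 390 and 46 of them. Of the members, 94.8%, 94.7% and 94.7% also passed that factor level. Counts were summed over the barcodes of each class in each library and tested with edgeR's quasi-likelihood test with library as a block, Benjamini-Hochberg adjusted at 0.05. Such a p measures how alike a difference was in 3 libraries of different types, not in replicates, and the tested genes come from the same cells as the carriers that sorted them. Fold changes below are log2, members over the compared class, and counts of a list are of its genes that passed a filter on low counts, so a gene could also pass through the class in which it was high.

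In the comparison with all other barcodes, 68.2% of 14088 genes tested differed, 34.1% higher and 34.1% lower in members. In the comparison with the carrier-low class, 22.9% of 12525 genes differed, 12.4% higher (1559 genes) and 10.5% lower (1314). Counts of lists below are to be read beside these shares of all genes, since some lie near them. At 2-fold or more the shares were 11.4% higher and 15.4% lower against all other barcodes, and 3.00% and 3.26% against carrier-low ones. The 1559 higher and 1314 lower genes became 537 and 358 without Type II, and 2201 and 2135 without Type III; against all other barcodes the higher count without Type II was 3187. Each of these fits has 2 libraries in place of 3, so where a call is lost its fold is given beside it. The median fold of all genes was 0.00 in both comparisons. Median UMIs per member were 54589, 40808 and 92031, close to the 49331, 37918 and 83757.5 of carrier-low barcodes. Mitochondrial genes took a median of 4.85%, 5.84% and 6.16% of UMIs in members against 3.81%, 4.22% and 4.21% in all other barcodes. Ribosomal protein genes took 27.8%, 26.2% and 26.9% against 36.0%, 36.3% and 36.0%. The part of these differences in depth and composition in the results below was not tested. Barcodes are not proven single cells: no doublet caller was run, 1 kept barcode sequence was shared by Type I and Type II, and no sequence was shared between members of different libraries.

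Apolipoproteins other than the 4 carriers were mostly higher in members. Of 10 tested among 11 listed, 9 were higher and 1 lower in members than in all other barcodes, with a median fold of 4.16. Against carrier-low barcodes 8 of 9 were higher and none lower, with a median of 2.54. Apob was at 822, 1139.9 and 1383 CPM in members, 66.8, 75.2 and 59.8 CPM in carrier-low barcodes and 5.76, 8.19 and 0.822 CPM in the remaining ones. The library sums of Apob in the 3 classes did not overlap, though single barcodes of the other classes also held Apob. The fold of Apob over carrier-low barcodes was 3.98 (SE 0.140, adjusted p = 2.11e-07). Apoc2, the activator of lipoprotein lipase, was at 1304, 1534 and 1629.9 CPM in members and 79.2, 75.1 and 45.2 CPM in carrier-low barcodes, a fold of 4.46 (SE 0.169, adjusted p = 2.67e-07). Apom, which travels on high-density lipoprotein and carries sphingosine-1-phosphate, was at 878, 844 and 941 against 209.9, 183 and 167 CPM, a fold of 2.24 (SE 0.084, adjusted p = 2.67e-07). Apoe, a ligand of the LDL receptor family, was abundant in both classes, at 7782, 8435 and 9352 against 4531, 4825 and 4144 CPM. Its fold was 0.92 (SE 0.073, adjusted p = 3.34e-05), so it was higher in members of each library but far less set apart than Apob or Apoc2. Apoa4, made in gut and liver, stood at 27.4, 42.2 and 65.8 CPM against 6.64, 7.38 and 4.15 CPM, and Apoc3, an inhibitor of triglyceride clearance, at 5.41, 6.55 and 6.87 CPM against 0.854, 0.930 and 1.31 CPM. Apoc1 was the member of the list that was not called against carrier-low barcodes, at 299, 274 and 294 against 243, 242 and 296 CPM (fold 0.16, adjusted p = 0.18), though without Type III it was (adjusted p = 0.000465). Apod was lower in members than in all other barcodes, at 0, 0.0784 and 0 against 1.73, 2.00 and 1.67 CPM.

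Genes that load and store lipid went in both directions. Of 21 tested against carrier-low barcodes, 9 were higher, 3 lower and 9 not called, with a median fold of 0.27. The RNA of the whole list nevertheless summed to less in members of each library, at 2411, 2315 and 2656 CPM. Carrier-low barcodes held 2938, 2707 and 2854 CPM. Mttp, which transfers lipid onto nascent Apob, was at 128, 149 and 203 CPM in members and 74.1, 73.4 and 65.5 CPM in carrier-low barcodes, a fold of 1.08 (SE 0.122, adjusted p = 0.000241). Fabp1, a fatty acid-binding protein of liver and gut, was at 15.5, 20.5 and 21.2 against 1.71, 1.30 and 1.53 CPM, a fold of 3.60 (SE 0.181, adjusted p = 1.79e-06). Dgat2, an enzyme of triglyceride synthesis, rose by 1.36 and Soat2, which esterifies cholesterol, by 1.10. Lpl, the lipase that Apoc2 activates, went the other way, at 1.45, 1.18 and 0 CPM in members against 4.86, 4.59 and 9.39 CPM (fold -2.01, SE 0.319, adjusted p = 0.00186). Against all other barcodes 17 of 21 genes were higher and 1 was lower.

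Serum proteins of yolk sac and liver were nearly all higher in members where they could be tested. Of 14 tested, 13 were higher and none lower, with a median fold of 2.89; 13 of the 27 listed were too low to test. The genes tested are those that passed a filter on low counts, so the share is not one of all 27. Trf, transferrin, the iron carrier, was at 97.1, 113 and 151 CPM in members, 2.69, 3.1 and 1.75 CPM in carrier-low barcodes and 1.35, 1.89 and 2.12 CPM in the remaining ones. The library sums of the last 2 classes overlapped and those of the members lay far above both. The fold of Trf over carrier-low barcodes was 5.34 (SE 0.143, adjusted p = 4.59e-08). Afp was at 55.2, 77.0 and 25.8 CPM in members and 0.657, 1.05 and 0.437 CPM in carrier-low barcodes, a fold of 6.23 (SE 0.144, adjusted p = 2.3e-08). It was lower in Type III than in the other libraries, yet above every carrier-low sum. Spp2, a secreted phosphoprotein of liver and bone, was at 40.0, 59.2 and 44.1 against 0.592, 1.43 and 0.655 CPM, a fold of 5.65 (SE 0.158, adjusted p = 4.86e-08). The fibrinogen chain gene Fgb was at 37.3, 50.8 and 45.8 against 1.38, 1.49 and 0.218 CPM, a fold of 5.11 (SE 0.191, adjusted p = 2.67e-07), while Fga was low in members at 1.67, 1.92 and 1.14 CPM. Igfbp1, which binds insulin-like growth factors, was at 38.1, 31.9 and 1.14 CPM in members, so Type III stood far below the other libraries. Spink1, a trypsin inhibitor, was high in both classes, at 8028, 6647 and 8162 against 3332, 2435 and 2143 CPM (fold 1.54, SE 0.1, adjusted p = 9.32e-06), against 79.0, 95.9 and 25.5 CPM in the remaining barcodes. Coagulation factor F10 rose by 2.46 and F5 by 1.61, the latter not called without Type II (fold 1.47, adjusted p = 0.079). Compared with all other barcodes, 13 of 15 tested were higher and 1 lower. The lower one was Serpinf1, a secreted inhibitor of vessel growth (fold -2.88), at 0.218, 0.196 and 0 CPM in members.

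**Figure D2:**
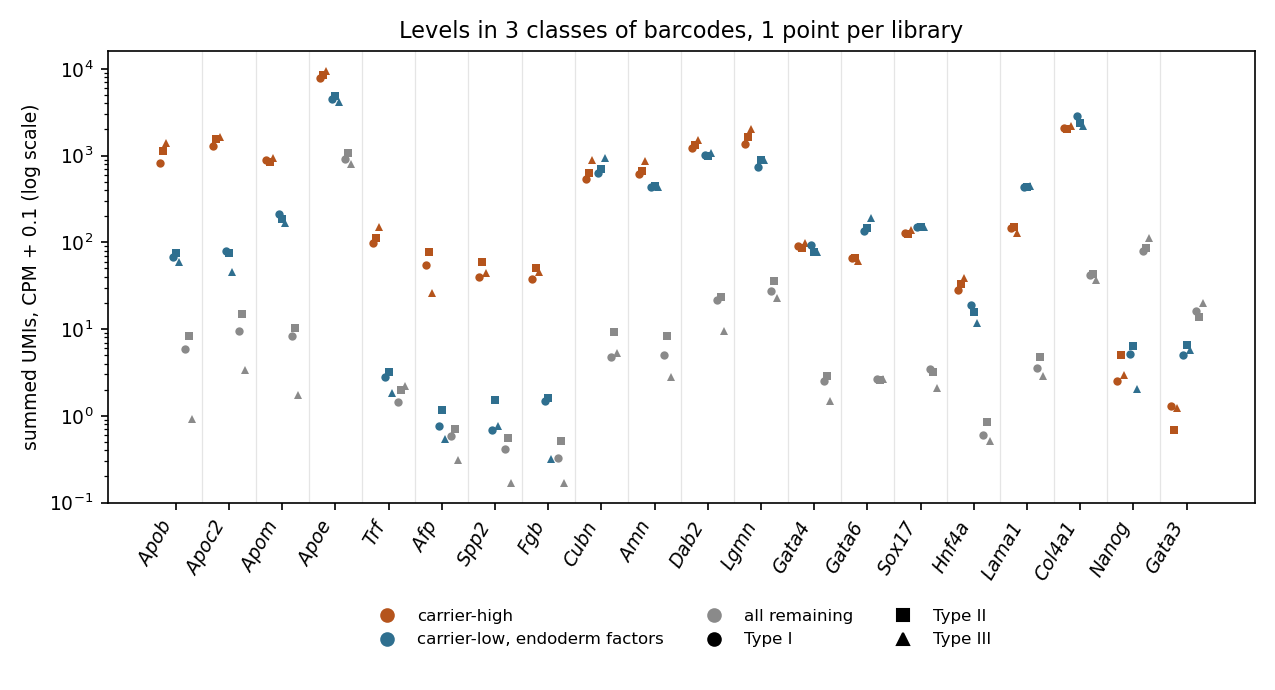
Summed UMIs in CPM plus 0.1 on a log axis for 20 genes, in carrier-high members (orange), carrier-low endoderm-factor barcodes (blue) and all remaining barcodes (grey), with 1 symbol per library. Trf and Afp separate members from both other classes, Cubn and Sox17 lie close together in the orange and blue classes, and Lama1 is highest in the blue class.

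Genes that handle retinol and thyroid hormone, the cargo of Rbp4 and Ttr, were mixed. Of 9 retinoid genes tested against carrier-low barcodes, 5 were higher and 1 lower. Bco1, which cleaves beta-carotene to retinal, was at 4.65, 8.51 and 14.3 CPM in members and 0.789, 1.12 and 0.437 CPM in carrier-low barcodes, a fold of 3.05 (SE 0.293, adjusted p = 9.55e-05). Rdh10, which oxidises retinol, was at 44.0, 46.2 and 54.4 against 21.3, 19.1 and 17.7 CPM (fold 1.23). Cyp26a1, which degrades retinoic acid, rose by 0.51, but its fold was -0.14 and not called with members at 5000 CPM or more. Crabp1, a retinoic acid-binding protein, was lower, with a fold of -1.92 (SE 0.404, adjusted p = 0.00833). Stra6, the cell-surface receptor for Rbp4, was not called and was low in both classes, at 0.981, 1.25 and 1.72 against 2.10, 1.80 and 2.62 CPM. Of 4 thyroid genes tested 3 were higher and none lower: Dio3, the deiodinase that inactivates the hormone, by 2.40, the transporter Slc16a10 by 1.06 and the receptor Thra by 0.74. Thra kept a fold of 0.71 without Type I (adjusted p = 0.12) and 0.72 without Type II (0.212) but was not called in either, and without Type III Stra6 was called lower (adjusted p = 0.044). Relative to the rest the counts were 6 higher and 2 lower of 9 retinoid genes and 2 higher and 1 lower of 4 thyroid genes.

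Receptors of apical uptake were abundant both in members and in carrier-low barcodes. Cubn, cubilin, was at 532, 629 and 889.9 CPM in members and 622, 698 and 925 CPM in carrier-low barcodes, a little lower in members of each library but not called (fold -0.15, SE 0.062, adjusted p = 0.119). In the remaining barcodes it was at 4.61, 9.06 and 5.14 CPM. Amn, the partner that brings cubilin to the membrane, was at 605, 659 and 867 against 429, 449 and 429 CPM and rose by 0.68 (adjusted p = 0.000837). Lrp2, megalin, was lower in members, at 199, 267 and 371 against 292, 315 and 421 CPM (fold -0.34, SE 0.08, adjusted p = 0.0145), as was its chaperone Lrpap1 (fold -0.30). The adaptor Dab2, which links these receptors to clathrin, was at 1214, 1306 and 1518 against 1003, 999 and 1063 CPM (fold 0.39). Fcgrt, the neonatal Fc receptor that carries immunoglobulin G across epithelia, was low but set apart, at 5.78, 9.41 and 12.0 against 0.592, 0.682 and 1.09 CPM (fold 3.53, SE 0.230, adjusted p = 9.32e-06). Lrp2 was not called without Type I (fold -0.23, adjusted p = 0.126) or without Type II (fold -0.38, adjusted p = 0.107). Without Type II the folds of Dab2 and Lrpap1 were 0.39 and -0.33, close to those of all 3 libraries, but neither was called (adjusted p = 0.0658 and 0.144). Cubn was called lower without Type III (fold -0.19, adjusted p = 0.00382). In all, 5 of 14 genes of uptake were higher and 2 lower than in carrier-low barcodes, and 12 were higher and 2 lower than in all other barcodes.

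Lysosomal genes were mostly higher in members. All 20 of 20 were higher than in all other barcodes, with a median fold of 1.66, and 17 of 20 were higher than in carrier-low barcodes and 3 not called, with a median of 0.53. Ctsl, cathepsin L, was at 2909, 3441 and 4909 CPM in members, 2037, 2338 and 2996 CPM in carrier-low barcodes and 269.6, 306 and 306 CPM in the remaining ones. It was highest in Type III members, and its fold over carrier-low barcodes was 0.59 (SE 0.058, adjusted p = 0.000101). Lgmn, legumain, another protease, was at 1361, 1642 and 2041 against 737, 878 and 886 CPM (fold 0.99). Ctsh, cathepsin H, was at 531, 582 and 765 against 249.6, 231 and 179 CPM (fold 1.47, SE 0.146, adjusted p = 0.000111). Psap, a cofactor of lipid-degrading enzymes, was not called, with 86.1, 88.5 and 88.7 against 98.3, 93.3 and 88.4 CPM.

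Genes of the apical surface and of transport were mostly higher. Of 17 apical and junctional genes, 12 were higher and 2 lower than in carrier-low barcodes, and 10 higher and 3 lower than in all other barcodes. Vil1, villin, which bundles actin in microvilli, was at 19.5, 25.3 and 18.9 CPM in members and 3.62, 2.60 and 2.18 CPM in carrier-low barcodes, a fold of 2.87 (SE 0.172, adjusted p = 5.7e-06). Cdhr2, a cadherin that links microvilli, rose by 3.32, and the microvillar scaffold gene Pdzk1 by 1.24. Cldn4, a tight-junction claudin, was lower, at 2.33, 2.27 and 0 against 4.4, 12.1 and 49.3 CPM (fold -2.17, SE 0.423, adjusted p = 0.00559), with the carrier-low sums differing widely between libraries. Of 16 transporters 13 were higher and 2 lower than in carrier-low barcodes. Slc2a2, the glucose transporter of liver, was at 14.3, 22.6 and 32.6 against 1.31, 0.992 and 0.655 CPM, a fold of 4.20 (SE 0.236, adjusted p = 3.69e-06). Fxyd2, a subunit of the sodium pump in kidney, rose by 3.01, and the monocarboxylate transporter gene Slc16a1 by 1.10. The lower ones were Slc38a4, an imprinted amino acid transporter gene (fold -2.29), and Slc16a3, which exports lactate (fold -0.97). With all other barcodes as reference, 13 were higher and 2 lower.

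Endoderm regulators were present in members and in carrier-low barcodes. Gata4 was at 89.6, 86.3 and 97.9 CPM in members and 93.2, 77.5 and 77.7 CPM in carrier-low barcodes, and Sox17 at 129, 125 and 139.6 against 151, 151 and 152 CPM. Gata6 was at 65.4, 66.7 and 61.2 against 135, 147 and 192 CPM and Sox7 at 19.4, 22.5 and 32.0 against 35.4, 36.3 and 53.3 CPM, both below the carrier-low sums in each library. Foxa2 was at 52.5, 46.8 and 55.5 against 44.8, 42.2 and 41.3 CPM. These 5 factors defined the carrier-low class, so they have no test in this comparison; all 5 were higher in members than in all other barcodes, with folds from 0.64 (Gata6) to 2.01 (Foxa2). Of the 16 regulators tested against carrier-low barcodes, 8 were higher, 2 lower and 6 not called. Hnf4a, a nuclear receptor that drives apolipoprotein and other liver genes, was at 27.9, 32.6 and 38.3 CPM in members, 18.9, 15.8 and 11.8 CPM in carrier-low barcodes and 0.506, 0.739 and 0.411 CPM in the remaining ones. The library sums of Hnf4a did not overlap between classes, and its fold over carrier-low barcodes was 0.92 (SE 0.147, adjusted p = 0.00189). Foxa3, a forkhead factor of liver, rose by 1.06, at 11.0, 15.9 and 10.3 against 7.43, 5.58 and 4.37 CPM; Foxa1 rose by 1.57 at 1 to 2 CPM in members. Cdx2, a factor of trophectoderm and hindgut, was at 18.9, 13.8 and 10.9 against 9.60, 5.27 and 1.96 CPM (fold 1.24, SE 0.164, adjusted p = 0.000638), and at 9.16, 9.52 and 3.63 CPM in the remaining barcodes. Nr2f6 (fold 0.78), Lhx1 (0.73) and Tcf7l2 (0.27) were also higher. Hhex, a factor of anterior visceral endoderm, was lower, at 4.36, 5.92 and 10.3 against 9.27, 9.61 and 18.8 CPM (fold -0.88, SE 0.139, adjusted p = 0.00185), as was Foxq1 (fold -0.37). Klf6, Sall4, Eomes, Otx2 and Cebpa were not called, with folds of -0.09, -0.13, -0.08, -0.66 and -0.40, and Hnf4g was too low to test. With 2 libraries several of these calls were lost while the folds kept their direction. Foxa1 and Tcf7l2 had folds of 1.61 and 0.35 without Type I (adjusted p = 0.0764 and 0.0546) and of 1.32 and 0.33 without Type II (adjusted p = 0.281 and 0.248). Foxa3, Lhx1 and Foxq1 had folds of 0.74, 0.95 and -0.38 without Type II (adjusted p = 0.105, 0.071 and 0.126). Without Type III Klf6 was called lower (fold -0.18, adjusted p = 0.0102). Against all other barcodes 14 of 21 regulators were higher and 2 lower, the latter Otx2 (fold -4.19) and Cebpa (-1.86); Hhex, Eomes, Klf6, Sall4 and Nr2f6 were not called, of which Sall4 and Nr2f6 were called higher without Type III (adjusted p = 0.000352 and 0.0171).

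Lists for parts of the early endoderm moved in different directions. Of 15 genes of extraembryonic visceral endoderm 11 were higher than in carrier-low barcodes and none lower, with a median fold of 0.92. Genes that this list shares with others include Afp, Trf and Spink1 (serum proteins), Fxyd2 (transporters) and Dio3 (thyroid genes), so the lists are not independent. Cited1, a transcriptional coregulator, was at 1244, 1201 and 1039.8 against 770.1, 542 and 310.0 CPM (fold 1.17, SE 0.146, adjusted p = 0.000442), and the signalling ligand Ihh at 60.1, 56.4 and 67.0 against 44.6, 41.7 and 40.4 CPM (fold 0.48). Slc13a4, a sulfate transporter, rose by 2.97. Relative to all other barcodes 14 of the list were higher and 1 lower. Of 8 anterior genes tested, 2 were higher and 4 lower than in carrier-low barcodes. Dkk1, a secreted inhibitor of Wnt signalling, was at 30.2, 27.8 and 17.2 against 78.9, 121 and 178 CPM (fold -1.97, SE 0.217, adjusted p = 0.000211). Hesx1 (fold -1.78), Sfrp1 (-1.69) and Hhex were the other lower ones, and Sfrp5 (1.55) and Lhx1 the higher ones. Sfrp1, Sfrp5 and Lhx1 were not called without Type II, with folds of -1.58, 0.91 and 0.95 (adjusted p = 0.173, 0.466 and 0.071). Cer1, the secreted antagonist that marks anterior visceral endoderm, was at 0 in members of all 3 libraries. The anterior counts relative to all other barcodes were 3 higher and 5 lower of 11.

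Genes of parietal endoderm, mostly basement membrane, were lower in members than in carrier-low barcodes. Of 18 tested none was higher and 12 were lower, with a median fold of -0.44; by DESeq2 10 of them were called, and 13 had an unadjusted p below 0.05. Lama1, a laminin chain, was at 147, 150.1 and 126 CPM in members, 433, 429.5 and 448 CPM in carrier-low barcodes and 3.49, 4.65 and 2.81 CPM in the remaining ones. Members lay between the other classes in each library, and the fold against carrier-low barcodes was -1.61 (SE 0.081, adjusted p = 1.79e-06). Lamc1, a second laminin chain, was at 108, 111 and 128 against 293, 279 and 315 CPM (fold -1.36, SE 0.069, adjusted p = 1.79e-06), and Hspg2, perlecan, fell by 1.09. Snai1, a factor of migrating cells, was at 2.62, 3.41 and 2.86 against 6.90, 6.63 and 10.5 CPM (fold -1.23). The collagen chain Col4a1 was only slightly lower, at 2089, 2019.5 and 2194 against 2832, 2402 and 2197 CPM (fold -0.24, SE 0.075, adjusted p = 0.0476), and Sparc, a matrix protein, was at 3023, 2921 and 2709 against 3706, 3179.5 and 3116 CPM (fold -0.21). Compared with all other barcodes, 13 of 18 were higher and 4 lower. Of 12 early primitive endoderm genes tested against carrier-low barcodes 2 were higher, Aqp8 (fold 1.49) and Dab2, and 5 lower, among them Dusp4 (-1.03), which dampens MAP kinase signalling, and Fgfr2 (-0.43). The calls of Col4a1, Sparc and Fgfr2 were lost without Type I, with folds of -0.14, -0.18 and -0.37 (adjusted p = 0.227, 0.0843 and 0.228), and without Type II, with folds of -0.23, -0.25 and -0.48 (adjusted p = 0.372, 0.256 and 0.232). Pdgfra, the receptor that marks primitive endoderm, was not called (fold 0.06), at 113, 104 and 109 against 121, 90.0 and 105 CPM. Against all other barcodes 14 of 16 were higher and 2 lower. Of 8 genes listed for definitive endoderm and gut 3 were higher and 2 lower than in carrier-low barcodes; the protease genes Tmprss2 (fold 1.42) and Cpm (1.13) were among the higher ones, while Cxcr4, the chemokine receptor used to sort definitive endoderm, was not called and was at 1.02, 0.784 and 0 CPM. With all other barcodes as reference, 5 of 9 were higher and 3 lower.

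**Figure D3:**
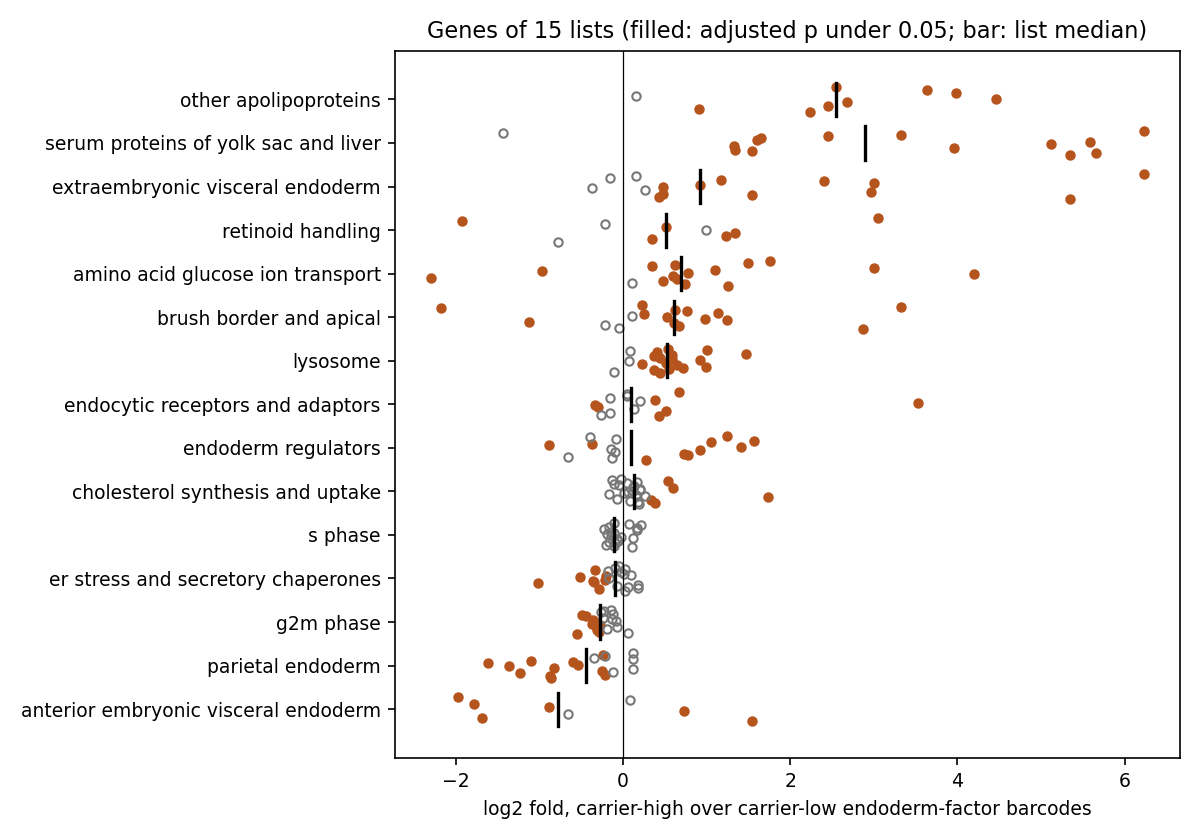
Log2 fold of members over carrier-low endoderm-factor barcodes (x axis) for each tested gene of 15 lists, filled where the adjusted p was under 0.05, with the list median as a black bar. Apolipoproteins and serum proteins lie to the right, parietal endoderm to the left, and S phase genes around 0.

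By counts of genes, markers of other lineages were mostly lower in members. Of 17 naive epiblast genes 14 were lower and 2 higher than in all other barcodes, with a median fold of -3.13. Nanog, a factor of pluripotency, was at 2.43, 4.86 and 2.86 CPM in members, 5.00, 6.20 and 1.96 CPM in carrier-low barcodes and 80.3, 86.6 and 112 CPM in the remaining ones. The library sums of members and carrier-low barcodes overlapped in Nanog (fold -0.59, adjusted p = 0.0857), and without Type III Nanog was called lower (adjusted p = 0.00431). Sox2 was at 3.71, 5.49 and 1.72 CPM in members and 97.0, 113 and 116 CPM in the remaining barcodes. The highest of these genes in members was Dppa5a, an RNA-binding protein of pluripotent cells, at 364, 446 and 345 CPM against 1123, 1298 and 1383 CPM in carrier-low and 2165, 2392 and 1979 CPM in the remaining barcodes, a fold over carrier-low barcodes of -1.71 (SE 0.091, adjusted p = 2.5e-06). The whole list summed to 723, 864 and 676 CPM in members, with 0, 0 and 3 of 17 genes at 0. Of 19 trophectoderm genes 13 were lower and 3 higher than in all other barcodes. Gata3 was at 1.20, 0.588 and 1.14 against 16.0, 13.5 and 20.1 CPM in the remaining ones. The whole trophectoderm list summed to 1763, 1857 and 1842 CPM in members and 1854, 2154 and 3653 CPM in the remaining barcodes. Its median sum per barcode was higher in members, at 1615, 1623 and 1414 CPM against 333, 348 and 386 CPM. The keratins Krt8 and Krt18, also expressed by endoderm epithelia, were not called (folds 0.02 and -0.00), at 610.2, 615 and 659.9 and 1009.5, 1102 and 997 CPM in members. Their direction hung on the library left out: both were called lower without Type I (folds -0.23 and -0.20, adjusted p = 0.0323 and 0.047) and higher without Type III (0.30 and 0.30, adjusted p = 0.00139 and 0.000308). Of 10 primed epiblast genes 9 were lower and none higher (DESeq2 called 8, and 9 had an unadjusted p below 0.05). Of streak and mesoderm genes 8 of 10 were lower and 1 higher, and of blood and endothelial genes 5 of 7 were lower and 1 higher. Summed, however, the blood and endothelial list was higher in members than in the remaining barcodes, at 35.0, 36.9 and 33.8 against 22.9, 18.3 and 15.3 CPM. It was highest in carrier-low barcodes, at 67.4, 72.9 and 118 CPM.

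The carrier-low class held more of some of these markers than the members did, and their part in the contrast with that class was not tested. Of 16 naive genes 10 were lower in members than in carrier-low barcodes and 1 higher, the pluripotency factor Tfcp2l1 (fold 1.47). Of 19 trophectoderm genes 12 were lower and 2 higher, Cdx2 (fold 1.24) and Krt18 (0.37). Of 7 mesoderm genes 2 were lower and 1 higher, Lhx1 (fold 0.73). These called genes are also counted elsewhere: 1 lower gene in the trophectoderm list, the other, Snai1, in the parietal endoderm list, and Lhx1 among the regulators. Of 8 primed genes 3 were lower and none higher (DESeq2 called 1, and 5 had an unadjusted p below 0.05), and of 6 blood and endothelial genes 5 were lower and none higher (3 by DESeq2 and 6 at an unadjusted p below 0.05). Krt18 was not called without Type I (fold 0.21, adjusted p = 0.0939) or Type II (fold 0.35, adjusted p = 0.153). Tfcp2l1 and the fold of Krt18 in this comparison were added after their values were seen. Kdr, the receptor of endothelial progenitors, was at 0.182, 0.157 and 0 CPM in members and 3.29, 4.09 and 17.9 CPM in carrier-low barcodes, and Pou5f1, a pluripotency factor, at 9.77, 19.1 and 6.87 against 62.1, 70.9 and 131 CPM. The 10 genes of the 2-cell stage summed to 0.291, 0.823 and 1.14 CPM in members and 0.526, 37.1 and 604 CPM in carrier-low barcodes, so Type III stood apart there; 7 of 10 were too low to test against all other barcodes and the other 3 were lower. Leaving out carrier-low barcodes with at least 100 CPM of genes of another lineage kept 152 of 284, 236 of 390 and 18 of 46. This choice was made after these data were seen, and Type III then rests on 18 carrier-low barcodes. Against those kept, 1235 genes were higher and 978 lower in members. Among the genes named here Cldn4 then had a fold of 0.01 (adjusted p = 0.992), and Nanog, which helped to choose the barcodes left out, one of 1.44. At 100 CPM of summed epiblast or trophectoderm genes 87.8%, 91.1% and 89.5% of members counted as holding a second lineage, but without Dppa5a 21.0%, 24.5% and 21.1% did.

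Genes of sterol synthesis and of secretion were mostly higher in members than in all other barcodes. Of 25 genes of cholesterol synthesis and uptake 24 were higher than in all other barcodes (median fold 0.71), and 5 were higher than in carrier-low barcodes (median 0.13), none lower in either. Among all genes tested, 34.1% and 12.4% were higher in these comparisons. Stard4, which moves cholesterol between membranes, was at 138, 146 and 133 CPM in members, 112, 110.1 and 97.6 CPM in carrier-low barcodes and 25.2, 29.4 and 24.6 CPM in the remaining ones. Of 21 genes of the secretory pathway and its stress response 15 were higher and 3 lower than in all other barcodes, but none was higher and 8 were lower than in carrier-low barcodes. Hspa5, the main chaperone of the endoplasmic reticulum, was at 379, 392 and 387 CPM in members against 515, 574 and 561 and 290.2, 297 and 230.5 CPM. Members thus lay between the other classes in Hspa5 in each library (fold over carrier-low barcodes -0.51, SE 0.067, adjusted p = 0.000584).

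Iron, signalling and imprinted genes had members in both directions. Of 10 metal genes 4 were higher and 2 lower than in carrier-low barcodes (7 and 3 against all other barcodes). The ferritin gene Fth1 was at 6271, 6509 and 6142 against 4042, 3887 and 3436 CPM (fold 0.73), and Atp7b, a copper transporter of liver, at 26.1, 28.2 and 34.3 against 8.35, 7.94 and 6.98 CPM (fold 1.82). The metallothionein Mt2 was at 119, 156 and 47.5 against 254, 272 and 213 CPM (fold -1.18). Of 27 signalling genes 7 were higher and 9 lower than in carrier-low barcodes (16 and 10 against all other barcodes). Fgf3 was at 0.363, 0.510 and 0 against 5.65, 5.64 and 7.64 CPM (fold -3.76, SE 0.306, adjusted p = 3.52e-05) and Fgf10 fell by 2.88, whereas Dlk1, a membrane ligand related to Notch ligands, was at 74.3, 58.5 and 82.4 against 12.6, 8.06 and 5.68 CPM (fold 2.85, SE 0.149, adjusted p = 2.23e-06). Of 20 imprinted genes 11 were higher and 4 lower than in carrier-low barcodes (11 and 9 against all other barcodes). H19, a maternally expressed long RNA, was at 1601, 1619.8 and 1962 CPM in members, 696, 583 and 549 CPM in carrier-low barcodes and 567, 395 and 602 CPM in the remaining ones, a fold over carrier-low barcodes of 1.5 (SE 0.099, adjusted p = 9.65e-06). Igf2, its neighbour, was at 50.9, 44.7 and 36.1 against 14.7, 20.8 and 56.8 CPM, higher in members of Type I and Type II and lower in those of Type III (fold 1.02, SE 0.291, adjusted p = 0.0313), and it was not called without Type I (fold 0.44, adjusted p = 0.08) or Type II (fold 0.78, adjusted p = 0.137).

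Cell-cycle genes were lower or not called in most cases. Of 20 S phase genes 15 were lower and 1 higher than in all other barcodes, with a median fold of -0.55. Against carrier-low barcodes edgeR called none of the 20, with 2 at an unadjusted p below 0.05 and 0 by DESeq2. Of 20 G2 and M phase genes 10 were lower than in carrier-low barcodes and none higher, and 7 were lower and 3 higher than in all other barcodes. Top2a, a topoisomerase of dividing cells, was at 223, 209.7 and 248 against 298, 247 and 293 CPM in carrier-low barcodes (fold -0.30), and Ccnb1, a mitotic cyclin, at 117, 118 and 112 against 151, 151 and 181 CPM (fold -0.44). Both genes were lower in members of each library, but Top2a was not called without Type I (fold -0.25, adjusted p = 0.1) or Type II (fold -0.34, adjusted p = 0.152). Of 20 genes of oxidative phosphorylation 14 were higher than in all other barcodes and 5 than in carrier-low ones, none lower in either, with medians of 0.28 and 0.12. Among all genes tested, 34.1% and 12.4% were higher in these comparisons. Of 20 ribosomal protein genes all were lower in both comparisons (medians -0.47 and -0.25); many have processed copies, so single levels are uncertain. Of 19 immediate early genes, which can respond to digestion, 3 were higher and 3 lower than in carrier-low barcodes, and 6 and 9 against all other barcodes. The larger changes were all lower: at 2-fold or more 0 were higher and 2 lower than in carrier-low barcodes. Against all other barcodes 0 were higher and 4 lower by that measure. Among all genes tested, 3.00% were higher and 3.26% lower at 2-fold against carrier-low barcodes, and 11.4% and 15.4% against all others. In either direction, 22.9% of all genes tested were called against carrier-low barcodes and 68.2% against all other barcodes.

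Over all genes with at least 50 CPM in the higher class in each library, those with the highest folds over carrier-low barcodes were Trf, Apoc2, Apob, Dlk1, Lgals2, Nrk, S100g, Selenop, Apom and Abcc2. Lgals2, a galectin, was at 300.3, 347 and 441 against 57.4, 48.9 and 58.7 CPM (fold 2.69, SE 0.1, adjusted p = 2.67e-07). S100g, a calcium-binding protein of absorptive epithelia, was at 588, 479 and 880.2 against 137, 97.2 and 61.6 CPM (fold 2.65, SE 0.250, adjusted p = 8.63e-05). Selenop, the plasma carrier of selenium, was at 146, 171 and 205 against 33.4, 27.8 and 29.5 CPM (fold 2.47, SE 0.112, adjusted p = 8.36e-07), and Abcc2, an apical exporter of conjugated compounds, at 54.4, 66.6 and 84.1 against 17.2, 14.5 and 12.2 CPM (fold 2.07). The lowest were Htra1, Dnmt3l, Glipr2, Ckb, Pou5f1, Marcks, Dkk1, Dppa5a, Utf1 and Basp1. Htra1, a secreted protease, was at 5.45, 8.82 and 8.58 CPM in members and 51.1, 83.3 and 119 CPM in carrier-low barcodes (fold -3.28, SE 0.1, adjusted p = 8.46e-08), and Dnmt3l, a cofactor of new DNA methylation, at 8.57, 9.17 and 8.01 against 57.6, 72.6 and 104 CPM (fold -2.93, SE 0.117, adjusted p = 3.44e-07). Both were low in members of all 3 libraries. Over all other barcodes the highest folds were Apoc2, Trf, Apob, Lgals2, S100g, Apom, Abcc2, Selenop, Prss12 and Spink1. The lowest there were Tdgf1, Trh, Sox2, Nanog, Klf2, Pou5f1, Ifitm3, Dppa3, Ifitm1 and Gata2, with folds from -4.24 for Tdgf1 to -3.60 for Gata2.

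Members were not uniform. Barcodes with a carrier sum from 1000 to below 5000 CPM made up 66.1%, 63.2% and 68.4% of members, those from 5000 to below 20000 CPM 32.5%, 35.0% and 31.6%, and 6, 10 and 0 barcodes had more. Serum genes differed between these levels. Trf was at 36.6, 36.4 and 28.8 CPM in the lowest level and 192, 219 and 364 CPM in the next. Afp was at 10.2, 11.9 and 5.40 and then 130.2, 132 and 61.2 CPM, and Spp2 at 12.6, 16.0 and 5.40 and then 82.9, 109.5 and 111 CPM. All were higher in the upper level in each library, and Type III rests on 13 and 6 barcodes. Apoc2 went in the same direction by less, from 772, 823 and 916 to 2222, 2546 and 2875 CPM, and Apoe by still less, from 6795, 7387 and 8286 to 9465, 9926 and 11212 CPM. In the 6 and 10 barcodes above 20000 CPM in Type I and Type II, Trf stood at 688 and 594 CPM and Afp at 335 and 1278 CPM.

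Other genes differed less or were lower with more carrier RNA. Cubn was at 578, 681 and 851 CPM in the lowest level and 451, 545 and 958 CPM in the next, and Dab2 at 1211, 1305 and 1372 and 1220.1, 1322 and 1774 CPM. In the upper level of Type III, which rests on 6 barcodes, both were higher, whereas Cubn was lower in the upper level of the other libraries. Hnf4a was at 28.4, 32.1 and 36.9 and 27.4, 33.8 and 40.8 CPM, so the regulator hardly differed while Trf did. Gata4 was at 96.3, 93.1 and 107 and then 77.8, 76.7 and 81.6 CPM, somewhat lower in each library. Laminin and collagen chains were lower: Lama1 was at 188, 197 and 165 and then 76.1, 75.8 and 59.7 CPM and Col4a1 at 2438, 2402 and 2545 and then 1479, 1425 and 1583 CPM. Dppa5a was at 451, 584 and 451 and then 209, 232 and 160.1 CPM. Hspg2 was at 82.2, 93.8 and 93.7 and then 56.3, 56.7 and 124 CPM, lower in the upper level of Type I and Type II and higher in that of Type III. The upper level thus held less Lama1 and Col4a1 RNA than the lowest level in all 3 libraries, with no test since barcodes share their library.

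**Figure D4:**
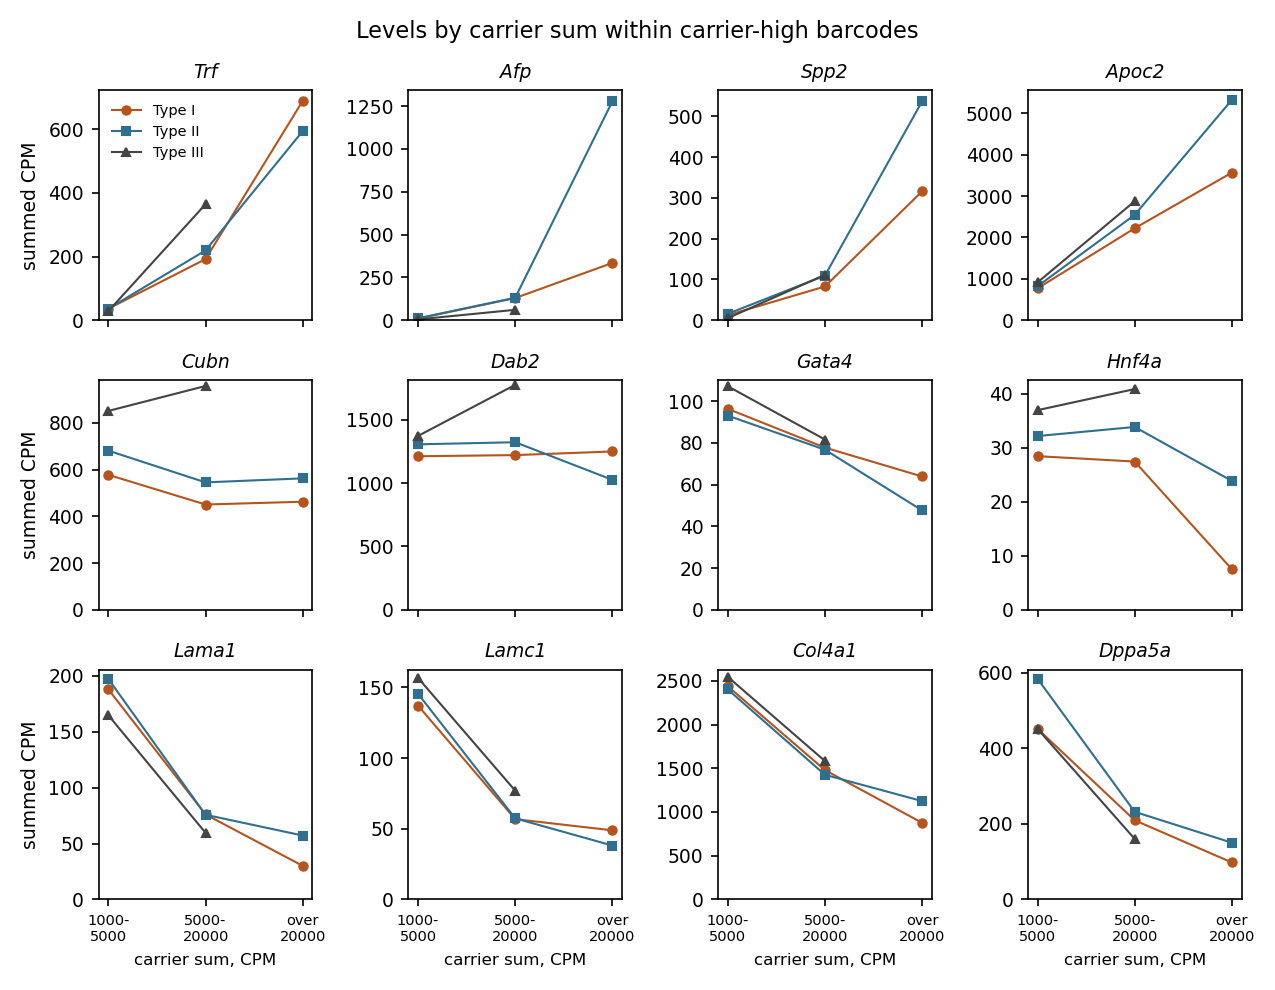
Summed CPM of 12 genes (y axes from 0, own scale each) at 3 levels of the carrier sum (x axis), 1 line per library. Trf, Afp, Spp2 and Apoc2 climb, Cubn, Dab2 and Hnf4a change less up to 20000 CPM, and Lama1, Lamc1, Col4a1 and Dppa5a decline; Type III has no barcode above 20000 CPM and the others have 6 and 10.

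Ranks across single members gave a similar picture. Among 2339 genes with at least 50 CPM in members, the highest mean Spearman rho with the carrier sum was that of Apom, at 0.66, 0.72 and 0.61 in 443, 563 and 19 barcodes. Lgals2 (0.58), Gstm1 (0.58), Apoc2 (0.58), Psph (0.55), Emb (0.52), Apob (0.51), Apoe (0.50), Nrk (0.49) and Bex2 (0.48) followed as means over libraries. Those of Lama1 (-0.43), Col4a1 (-0.41), Col4a2 (-0.39), Asns (-0.39) and Dppa5a (-0.39) were lowest. After thinning to 10000 UMIs the mean rho of Apom was 0.66, that of Psph 0.27 and that of Lama1 -0.30. The carrier sum itself had a rho of 0.15, 0.16 and 0.22 with the UMI total, of -0.20, -0.20 and -0.06 with the 5 endoderm factors and of -0.09, -0.09 and 0.08 with the mitochondrial share. These values describe barcodes that share a library and a depth range, and carry no p.

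Between libraries, genes of the members were compared by size only. By a rule of at least 2-fold with 10 CPM added and 50 CPM in one of the 2 libraries, 0 of 2700 genes (0.00%) differed between Type I and Type II; the largest ratios were those of Egr1 (log2 0.77) and Aqp8 (-0.61). For Type III over Type I the rule found 14 of 2865 genes (0.489%), of which 8 were higher and 6 lower. For Type III over Type II it found 12 of 2867 (0.419%), with 8 higher and 4 lower. Slco2a1, a prostaglandin transporter, was at 56.7 CPM (46.0 to 69.0) in Type III (exact 95% Poisson interval, counting error only), 12.7 CPM (11.4 to 14.1) in Type I and 17.1 CPM (15.5 to 18.8) in Type II. Abcb1b, a drug exporter, was at 117 CPM (101 to 134), 38.1 CPM (35.8 to 40.5) and 38.4 CPM (36.1 to 40.9) in the same order. The matrix genes Ccn2 and Ccn1, the stress-response factor Atf3, the kinase gene Sgk1, Tfec and Apoa4 were past 2-fold over Type I, and of these Ccn2 also over Type II, together with Myadm and Phpt1. Mt2 was at 47.5 CPM (37.8 to 58.9) in Type III against 119 CPM (115 to 123) in Type I and 156 CPM (151 to 161) in Type II, with Mt1 likewise lower, and Afp was lower than in Type II (log2 -1.28). Cryab, a small heat shock protein, and AY036118 were lower than in Type I. The others past the limit included Gm transcripts and Rpl29. With 19 barcodes in Type III and 1 library per type, a difference of type cannot be told apart from one of library or of single barcodes.

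**Figure D5:**
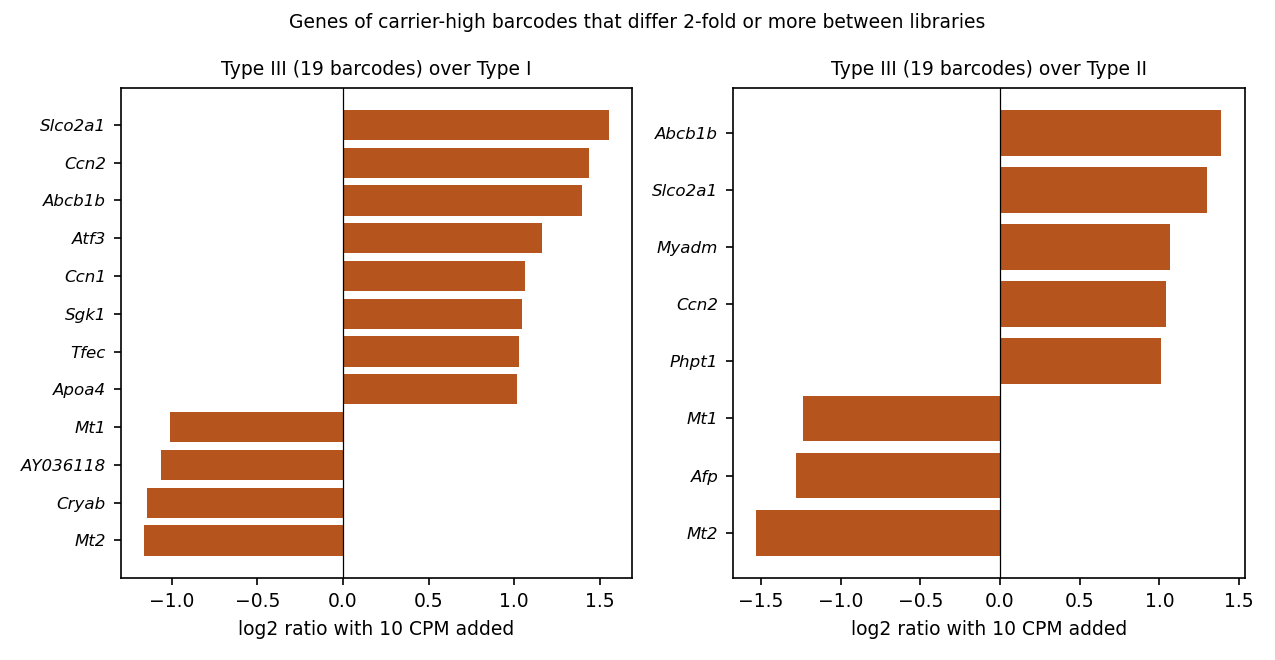
Log2 ratio with 10 CPM added (x axis) of summed members of Type III over Type I (left) and over Type II (right), for the genes named in the text that differed by 2-fold or more, 1 bar per gene. Slco2a1, Abcb1b and Ccn2 are past the limit in both panels on the higher side, and Mt2 and Mt1 on the lower.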

How the data were processed

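RNA was measured by droplet single-cell sequencing with the 10x 3' kit v3.1, 1 library per type. The deposited files hold raw UMI counts of 32285 genes in each barcode. Per the file headers, Cell Ranger 6.0.1 made them; the build was mm10 per the submitters' processing notes. The members and lists were chosen with earlier results of these data known. Counts were summed per class and library, filtered with filterByExpr, scaled with TMM and tested with edgeR 4.0.16 (R 4.3.3). DESeq2 1.42.0 was an alternative. On simulated counts for the comparison with carrier-low barcodes, 83% of 1.5-fold and 97% of 2-fold changes were found, with 11 false calls among 12651 genes tested. The simulation gave every gene the same spread and every library the same profile, and changed only genes above a minimum count. These rates therefore need not hold for low or variable genes of these data. Shares carry exact binomial intervals. Doublets were not called; leaving out the top 5% of UMI totals and members with genes of 2 lineages stood in. Since every library held both classes, library was the block.

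Genes were named by a rule: all endoderm regulators, in each other list up to 5 of the largest changes and 2 against the list's direction, over all genes the 10 highest and 10 lowest, between libraries the 10 largest ratios each way, and the 10 highest and 5 lowest rank correlations, mitochondrial, Rpl, Rps, Gm and Rik genes left out where all genes were ranked. Alb, Apoc1, Cer1, Cited1, Cxcr4, F10, F5, Igfbp1, Ihh, Krt8, Mttp, Psap, Rpl29, Slc16a1, Sparc, Stra6 and Top2a fall outside it in part or whole and were chosen after their values were seen. Some genes that the rule names are not reported here. RefSeq promoters were read for GRCm38.p6; Trf was not matched. The alternatives that drop members or carrier-low barcodes with genes of other lineages without counting Dppa5a were chosen after seeing the data.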

Additional observations from a re-analysis of the deposited data

Results flagged for a closer look

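Barcodes that the rule left out for their depth also held the carriers. Below 10000 UMIs, 47.9% of barcodes in Type I (2372 of 4949), 45.7% in Type II (2904 of 6349) and 22.9% in Type III (368 of 1606) reached 1000 CPM of Ttr, Rbp4, Apoa1 and Apoa2. Their median depth was 1416, 1714 and 1160.5 UMIs, so that 1 or 2 UMIs can pass 1000 CPM, and these shares are not comparable with those of the kept barcodes. In such carrier-high shallow barcodes Apob stood at 357, 325 and 294 CPM and Cubn at 201, 211 and 238 CPM, below the members' sums in each library. Among barcodes with at least 10000 UMIs but over 20% mitochondrial UMIs, 36.6% in Type II (15 of 41) reached 1000 CPM. The comparisons used none of these barcodes, and the shares are given only as values from data left aside.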

How the results depend on the processing

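Counts of genes higher and lower in members moved with the settings as follows. Against all other barcodes (4805 and 4805), 3193 were higher at a carrier threshold of 5000 CPM, and 1968 were higher and 2193 lower without members holding at least 100 CPM of genes of 2 lineages, which left 54, 50 and 2 members. Leaving out 1 library gave 3187 to 5181 higher and 3340 to 5406 lower. Against carrier-low barcodes (1559 and 1314), the counts were 983 and 683 at 2000 CPM, 796 and 601 at 5000 CPM, 289 and 205 without members of 2 lineages, and 859 and 697 with DESeq2. Thinning to 10000 UMIs gave 990 higher. Leaving out 1 library gave 537 to 2201 higher and 358 to 2135 lower. Without the library as a replicate block 1063 were higher and 796 lower than in carrier-low barcodes, and 4390 and 4411 against all other barcodes. By choices made after seeing the data, leaving out members of 2 lineages without counting Dppa5a gave 1562 and 1376 against carrier-low and 4642 and 4714 against all other barcodes. The cause of these changes was not tested.

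Between libraries, 1 gene was higher in Type I than in Type II at 5000 CPM. Type III over Type I had 14 genes higher with 1 CPM added, 62 higher and 13 lower at 5000 CPM, and 57 and 36 after thinning. Type III over Type II had 51 and 10 at 5000 CPM and 39 and 25 after thinning. At 5000 CPM Type III had 6 members. The share of members was 36.9% at 500 CPM, 23.3% at 2000 CPM, 10.7% at 5000 CPM and 28.3% without Ttr in Type I. In Type II it was 32.6%, 21.0%, 10.4% and 23.2%, and in Type III 2.21% at 5000 CPM.

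Of 31 named genes called against all other barcodes, 27 kept direction and call in those of the 17 settings that tested them, and 0 changed sign. Of 99 called against carrier-low barcodes, 61 kept both in those of the 20 settings that tested them. Another 3 changed sign, Cldn4, Cyp26a1 and Top2a. The other changes of sign were in genes not called. A gene filtered out in a setting was not counted there. Many of these genes were named for large changes in the same data, so the counts do not describe all called genes. The log2 folds of changed sign in the comparison with all other barcodes were these. Krt8 was -0.048 with a carrier threshold of 500 CPM, -0.056 with DESeq2, -0.068 without the library block and -0.23 to 0.30 without 1 library. Krt18 was 0.056 at 2000 CPM, 0.10 at 5000 CPM, 0.019 with a minimum of 5000 UMIs, 0.0074 with at most 10% mitochondrial UMIs, 0.12 without the top 5% of UMI totals, 0.16 without members of 2 lineages, 0.023 without them when Dppa5a was not counted, 0.068 after thinning and -0.20 to 0.30 without 1 library. Eomes was -0.57 at 5000 CPM and -0.13 without members of 2 lineages. Sall4 was -0.13 at 5000 CPM and -0.17 without members of 2 lineages. Klf6 was 0.15 without members of 2 lineages. Those against carrier-low barcodes were these. Cebpa was 0.078 at 2000 CPM and 0.054 with DESeq2. Cxcr4 was -0.47 at 2000 CPM, -0.0059 without the top 5% of UMI totals and -0.20 with DESeq2. Cyp26a1 was -0.14 at 5000 CPM and -0.013 without members of 2 lineages. Pdgfra was -0.17 at 5000 CPM, -0.31 without members of 2 lineages, -0.042 with carrier-low barcodes of other lineages left out, -0.088 at a factor level of 200 CPM and -0.036 to 0.14 without 1 library. Apoc1 was -0.30 without members of 2 lineages. Klf6 was 0.31 without members of 2 lineages and -0.18 to 0.019 without 1 library. Top2a was 0.13 without members of 2 lineages. Cldn4 was 0.0076 with carrier-low barcodes of other lineages left out. Nanog was 1.44 with carrier-low barcodes of other lineages left out and 0.067 at a factor level of 200 CPM. Cubn was 0.043 at a factor level of 50 CPM. Eomes was 0.016 after thinning and -0.12 to 0.029 without 1 library.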
